A study of Mus musculus with 37 samples.

Results

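The data described here are the messenger RNA levels of 5 genes for ligands of the tumour necrosis factor (TNF) family, Tnf, Lta, Ltb, Tnfsf14 and Cd70, in mouse myeloid cells given interleukin-10 (IL-10), lipopolysaccharide (LPS) or both. The genes were chosen by name, not by their values. They had 7 transcripts, 3 of them from Ltb and 1 from each of the others, among the 16993 named transcripts of 6509 genes in the rows of the deposited table used here.

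TNF family ligands are mostly trimeric proteins held in the membrane of the cell that makes them, and they act on receptors that signal to NF-kappaB and to cell death pathways. Tnf encodes TNF, the early inflammatory cytokine of activated myeloid cells, which is released when a protease cuts it from the membrane. Lta encodes lymphotoxin alpha, a secreted homotrimer that binds the TNF receptors, and Ltb encodes lymphotoxin beta, which anchors lymphotoxin alpha to the membrane as a heterotrimer that binds the lymphotoxin beta receptor. Tnfsf14 encodes LIGHT, a ligand of the lymphotoxin beta receptor and the herpesvirus entry mediator, and Cd70 encodes the ligand of the T-cell costimulatory receptor CD27. LPS, a component of the outer membrane of Gram-negative bacteria, acts through Toll-like receptor 4, and IL-10 is the cytokine best known for limiting the response of myeloid cells to it.

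RNA-seq had been done on 5 cell types of C57Bl6cJ mice: dendritic cells from the spleen (sDCs), macrophages drawn from the peritoneum after thioglycollate, neutrophils from bone marrow, and eosinophils and mast cells cultured from marrow. All but the eosinophils were left untreated or given IL-10 (100 ng/ml), LPS (100 ng/ml) or both, with IL-10 added 4 hours before LPS and LPS left for a further 4 hours. When the cells without LPS were collected is not stated in the sources used here, so whether culture times differed is unknown. Eosinophils were studied untreated and with LPS only. Neutrophils came from pooled mice and were kept overnight with GM-CSF, macrophages were selected by adherence, and sDCs were enriched with a magnetic kit, so that each group models a preparation and not a resident cell. Of 37 samples, 36 made up these 18 groups of 2 libraries each, and 1 T cell sample was not analysed here. The table gave 1 authors' mean per group, so no difference below has a replicate check, and no SD, p-value or depth per library can be given.

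Each value is a normalized level, a tag count corrected for GC content by the authors. A transcript or gene was kept in a cell type where its highest group mean there was at least 10, and "rose" or "fell" below stands for a change of at least 2-fold in the level plus 1, given on the log2 scale. In the rows used, the highest level in every group was 185338, reached by 1 to 7 transcripts per group. A difference that involves this value therefore cannot be read beyond it. In bulk RNA, fewer cells of a type and less RNA per cell cannot be told apart.

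The labels were compared with cell type markers. The summed macrophage, neutrophil, mast cell and eosinophil markers were each highest in their own cell type, for instance 277675 to 325478.5 for the sum of 3 mast cell markers in mast cells against at most 8800 elsewhere. Among single markers, Ly6g was highest in untreated eosinophils (188.5, against at most 161.5 in neutrophils) and Emr1 in LPS-treated eosinophils (22514.5, against at most 21201 in macrophages). Of the 3 dendritic cell markers in the rows used, Xcr1 was highest in sDCs (185.5 to 205.5, against 4 to 63.5 elsewhere), Clec9a was 27.5 to 243.5 in sDCs against 60 to 103.5 in neutrophils, and Itgax reached only 4075.5 in sDCs against 13861 in macrophages. Markers of other cells were also present. The sum of the B-cell markers Cd79b and Pax5, 2 of the 7 used, was highest in neutrophils (1770.5 to 2861.5), followed by sDCs (453.5 to 885.5), macrophages (70 to 105.5), eosinophils (63.5 to 67) and mast cells (3 to 7.5). In sDCs the T-cell and dendritic cell marker Cd4, 1 of 10 T-cell markers listed, was 876 to 2306.5 and the natural killer cell marker Klrd1, 1 of 6 listed, was 248 to 1906.5. The eosinophil markers Epx and Ccr3, 2 of 8 listed, summed to 19648 to 23628 in neutrophils against 221356 to 231327.5 in eosinophils.

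All 5 genes lie on chromosome 17, in 2 clusters 21.9 Mb apart (build NCBIM37, GENCODE vM1). Ltb (ENSMUST00000025262, 3 exons, chr17:35331384-35333247, plus strand) is followed by Tnf (ENSMUST00000025263, 4 exons, chr17:35336326-35338952, minus strand) after 3061 bp, counted from the end of its longest-reaching transcript, and 1158 bp separate Tnf from Lta (ENSMUST00000025266, 4 exons, chr17:35340110-35342296, minus strand). The other cluster holds Cd70 (ENSMUST00000019633, 3 exons, chr17:57285420-57289200, minus strand) and, 39.7 kb away, Tnfsf14 (ENSMUST00000005976, 4 exons, chr17:57328915-57333612, minus strand). The values with LPS differed within and between the clusters, so the 250 bases before the start of each are shown as RefSeq gives them for 4 of the 5 genes in build GRCm38.p6, at chr17:35202008-35202257 for Tnf, chr17:35205352-35205601 for Lta, chr17:35194257-35194506 for Ltb and chr17:57194182-57194431 for Tnfsf14, each read 5′ to 3′ on the strand of its gene. Capitals mark every match on either strand to 7 motifs.
Tnf: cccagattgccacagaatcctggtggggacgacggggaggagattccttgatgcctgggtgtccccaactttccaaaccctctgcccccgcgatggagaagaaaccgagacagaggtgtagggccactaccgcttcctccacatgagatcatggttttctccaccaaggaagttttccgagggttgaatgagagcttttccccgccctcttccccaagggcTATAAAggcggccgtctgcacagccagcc
Lta: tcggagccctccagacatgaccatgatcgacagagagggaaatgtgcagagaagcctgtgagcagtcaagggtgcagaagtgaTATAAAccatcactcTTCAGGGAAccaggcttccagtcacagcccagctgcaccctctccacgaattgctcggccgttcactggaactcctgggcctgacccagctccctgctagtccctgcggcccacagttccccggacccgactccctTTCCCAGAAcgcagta
Ltb: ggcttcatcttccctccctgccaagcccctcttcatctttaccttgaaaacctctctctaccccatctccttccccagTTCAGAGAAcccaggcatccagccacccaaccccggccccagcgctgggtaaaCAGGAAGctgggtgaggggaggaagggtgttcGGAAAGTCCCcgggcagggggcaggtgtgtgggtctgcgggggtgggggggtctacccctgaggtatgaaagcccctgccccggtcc
Tnfsf14: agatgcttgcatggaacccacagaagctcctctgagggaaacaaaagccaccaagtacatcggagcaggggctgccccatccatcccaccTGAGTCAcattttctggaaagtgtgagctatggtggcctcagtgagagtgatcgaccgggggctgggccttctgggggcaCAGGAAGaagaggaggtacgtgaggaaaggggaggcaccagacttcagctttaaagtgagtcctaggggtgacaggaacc
The motifs searched were the NF-kappaB decamer, an interferon regulatory factor element, a STAT element (TTCNNNGAA), an AP-1 element (TGANTCA), a cyclic AMP response element (TGACGTCA), an ETS element (CAGGAAG) and a TATA box (TATAAA). No matches overlapped in these windows.

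The Tnf window held 1 match, TATAAA, starting 29 bases before the start site. Lta had TATAAA starting 167 bases and STAT matches starting 152 and 16 bases before it. For Ltb the window had 1 match each to the NF-kappaB decamer (starting 87 bases before the start), the STAT element and the ETS element, and that of Tnfsf14 had 1 match each to the AP-1 and ETS elements. Of 32851 promoter windows of the same length, 7.25% held the NF-kappaB decamer, 7.02% the STAT element, 6.75% the AP-1 element, 10.8% the ETS element, 12.4% TATAAA, 2.98% the interferon regulatory factor element and 1.55% the cyclic AMP response element. These matches describe the letters only. The starts are those of RefSeq and can differ from those of the transcripts named above. By the shift between builds seen for Tnf and Lta, the Ltb window extends into the main Ltb transcript.

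Tnf reached the highest level of the 5 ligand genes. In macrophages its level was 712.5 untreated, 873 with IL-10, 185338 with LPS and 22865 with IL-10 and LPS. LPS thus raised it by 8.02 on the log2 scale, rank 34 among 15110 kept transcripts, to the highest level of the rows used. Among these rows, Tnf was the sole transcript at this highest level in LPS-treated macrophages. One of the 2 libraries behind each of the untreated and IL-10 macrophage means came from an earlier dataset and those given LPS did not, and the part of this difference in the macrophage changes with LPS was not tested. In neutrophils the level was 2191 untreated, 2002 with IL-10, 44593 with LPS and 11420.5 with both. The macrophage marker Emr1 moved with Tnf in neutrophils (4346, 4305.5, 14667.5 and 5157.5 in the same order), while Cd68 was 2788, 3319, 3140 and 4387.5 and Mrc1 was 454.5, 773.5, 124.5 and 613, and the part of macrophages in the neutrophil values was not tested. The levels of Tnf in sDCs were 390, 417, 18268.5 and 5413. All 3 of these cell types thus showed a rise with LPS that was smaller when IL-10 had been given first.

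Mast cells had a Tnf level of 551 untreated, 575 with IL-10, 5661.5 with LPS and 3076.5 with both, and eosinophils had 619.5 untreated and 2343.5 with LPS. Untreated levels differed by less between cell types than LPS-treated ones did. They ran from 390 in sDCs to 2191 in neutrophils, whereas LPS-treated levels ran from 2343.5 in eosinophils to 185338 in macrophages. The log2 change with LPS was next highest in sDCs at 5.55, then 4.35 for neutrophils, 3.36 for mast cells and 1.92 for eosinophils. With IL-10, the LPS-treated level fell by 3.02 in macrophages, and the change was -1.97 in neutrophils and -1.75 in sDCs on the log2 scale, and the difference of -0.88 in mast cells did not reach 2-fold.

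**Figure D1:**
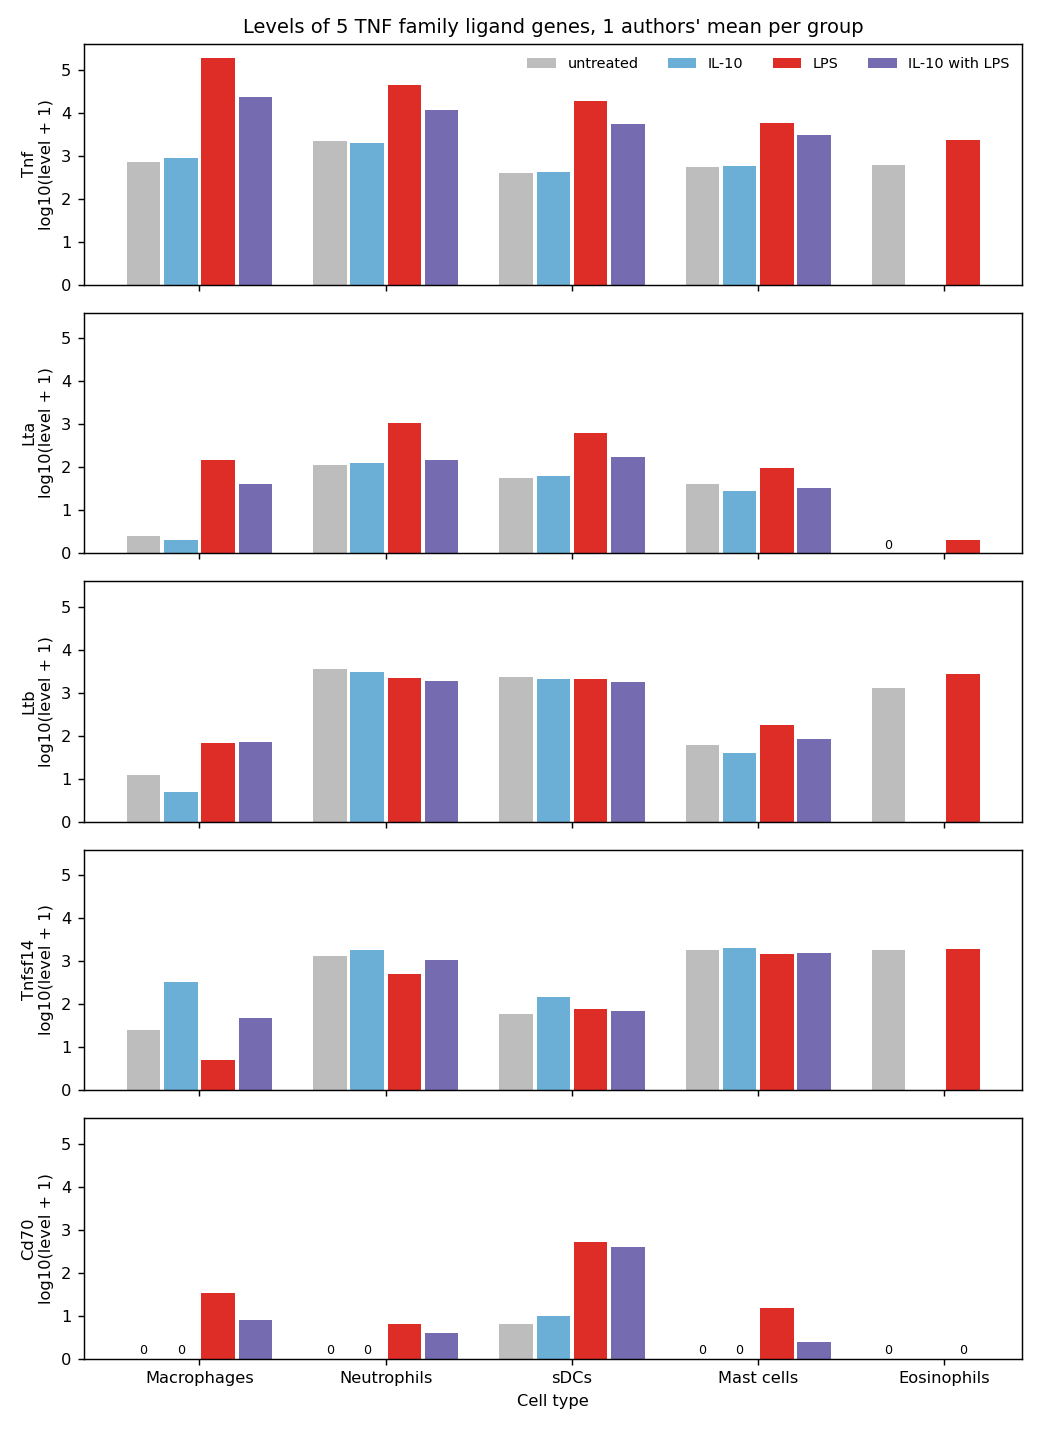
Normalized level of each ligand gene (sum of its transcripts) on a log10(level + 1) axis, by cell type, with 1 bar for the authors' mean of each group and no error bars because the table holds none; 0 marks a group listed at 0. Tnf was 390 or more in every group, while Cd70 was at 0 in 8 of 18 groups.

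Lta rose with LPS and fell with IL-10 in LPS-treated cells in the 4 cell types given both agents. Its level was highest in neutrophils given LPS (1079), against 112 untreated, 127 with IL-10 and 143.5 with both. In sDCs it was 56.5 untreated, 60 with IL-10, 627.5 with LPS and 175 with both. Neutrophils given both therefore returned close to the untreated level, and sDCs given both kept a level above it. Macrophages had 1.5 untreated, 1 with IL-10, 148 with LPS and 40 with both, and mast cells had 39, 26.5, 93.5 and 31.5. Eosinophils were listed at 0 untreated and at 1 with LPS, so that Lta was not kept there.

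On the log2 scale, Lta rose with LPS by 5.90 in macrophages, 3.45 in sDCs, 3.26 in neutrophils and 1.24 in mast cells. The macrophage value starts from a level of 1.5 and was 6.53 with 0.1 and 3.78 with 10 added to the level in place of 1. With IL-10 the change of the LPS-treated level was -1.86, -1.84, -2.90 and -1.54 in the same order. Lymphocytes are known to express Lta, so the B-cell markers are given beside it. In neutrophils Cd79b was 2143.5 untreated and 1195 with LPS, and Pax5 was 705.5 and 762. In sDCs Pax5 rose from 25 to 59.5, as Lta did, while Cd79b was 860.5 and 452. In macrophages Pax5 was 2.5 untreated, 44 with LPS and 16.5 with both, moving with Lta, while Cd79b was 101, 61.5 and 89. The part of B cells in the neutrophil, sDC and macrophage values was not tested.

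Ltb showed another pattern, set by cell type more than by treatment. Its summed level was 3630 untreated, 3098 with IL-10, 2187.5 with LPS and 1844.5 with both in neutrophils, and 2382.5, 2123, 2039 and 1828 in sDCs. In both cell types the lowest level was that with both agents, and no pair of groups compared differed by 2-fold. Macrophages had 11 untreated, 4 with IL-10, 66.5 with LPS and 70 with both, and mast cells had 60, 38.5, 179 and 83.5. Eosinophils rose from 1284.5 untreated to 2778.5 with LPS.

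The log2 change of the Ltb sum with LPS was 2.49 in macrophages, 1.56 in mast cells and 1.11 in eosinophils, against -0.73 in neutrophils and -0.22 in sDCs, and the macrophage value was 1.87 with 10 added in place of 1. B cells express Ltb strongly, and the 2 cell types with the highest B-cell marker sums, neutrophils and sDCs, were 2 of the 3 with an Ltb sum above 1000 in every group. Cd79b in neutrophils was lower with LPS (2143.5 untreated and 1195 with LPS), as Ltb was, while Pax5 was 705.5 and 762. In sDCs Cd79b was 860.5 and 452 and Pax5 was 25 and 59.5, where the Ltb sum was 2382.5 and 2039. Eosinophils, with B-cell marker sums of at most 67, had Ltb at 1284.5 and above. How much of the Ltb signal in neutrophils and sDCs came from B cells was not tested.

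Ltb was the one member with several transcripts, and their shares shifted in eosinophils. The main coding transcript (ENSMUST00000025262) was 943.5 untreated and 2510.5 with LPS, and a transcript with a retained intron (ENSMUST00000173510, chr17:35331468-35333250) was 122 and 227. A coding transcript with another first exon (ENSMUST00000173600, chr17:35331571-35333265) fell from 219 to 41. It was thus the sole Ltb transcript that was lower with LPS in eosinophils. In neutrophils the 3 transcripts were 3102, 491 and 37 untreated and 1905.5, 249 and 33 with LPS, and in sDCs they were 2178, 200 and 4.5 untreated and 1852, 177 and 10 with LPS. The transcripts overlap almost entirely and the counting program divides shared reads between them by estimation, so their split is uncertain where their sum is not.

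**Figure D2:**
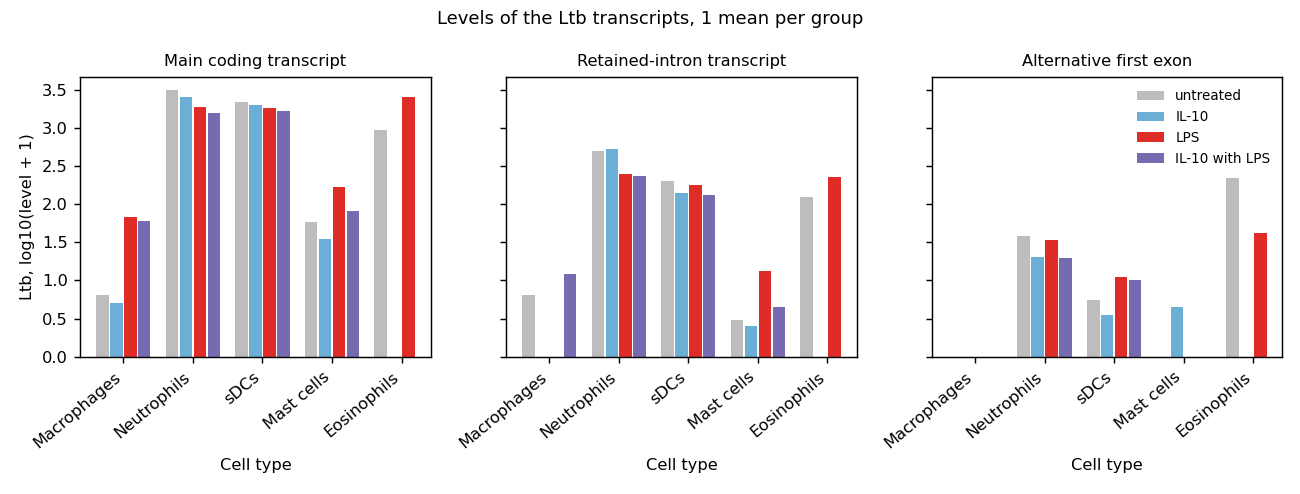
Normalized level of the 3 Ltb transcripts on a log10(level + 1) axis by cell type, with 1 bar per group mean. The main coding transcript carried most of the signal in neutrophils, sDCs and eosinophils, and the transcript with another first exon was 219 in untreated eosinophils and 41 with LPS.

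Tnfsf14 moved against Tnf in macrophages and neutrophils. In macrophages its level was 24 untreated, 333 with IL-10, 4 with LPS and 47.5 with both, so that each group given IL-10 was above its counterpart without it. In neutrophils the level was 1342 untreated, 1823.5 with IL-10, 510 with LPS and 1052 with both, again highest with IL-10 alone and lowest with LPS alone. With LPS it fell by 2.32 in macrophages and fell by 1.39 in neutrophils on the log2 scale, and IL-10 raised the LPS-treated level by 3.28 and 1.04. With 10 added to the low macrophage levels in place of 1, the changes in macrophages were -1.28 and 2.04. IL-10 alone raised it by 3.74 in macrophages, rank 341 among 15110 kept transcripts, and by 1.27 in sDCs.

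In sDCs the Tnfsf14 level was 59 untreated, 143.5 with IL-10, 78 with LPS and 67.5 with both. Mast cells had 1872, 2052, 1510.5 and 1567, and eosinophils 1801.5 untreated and 1946 with LPS. Neither of these 2 cell types showed a 2-fold difference in any comparison. Beside the neutrophil values, the eosinophil marker Epx was 19128.5 untreated and 18734 with LPS, close to each other where Tnfsf14 fell. The stem cell factor receptor gene Kit was 3906.5 untreated, 3699.5 with IL-10, 1882 with LPS and 2701.5 with both in neutrophils, lower with LPS as Tnfsf14 was, while the mast cell tryptase gene Tpsb2 was at most 4.5 there. The part of eosinophils and of Kit-positive cells in the Tnfsf14 values of neutrophils was not tested.

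Cd70 was detected mainly in sDCs given LPS. Its level in sDCs was 5.5 untreated, 9 with IL-10, 527 with LPS and 402.5 with both, a rise of 6.34 with LPS that ranked 66 among 14603 kept transcripts and a difference of -0.39 with IL-10 that did not reach 2-fold. The rise starts from a low level and was 5.11 with 10 added in place of 1. In macrophages it was listed at 0 untreated and with IL-10, at 33 with LPS and at 7 with both. Neutrophils were at 0, 0, 5.5 and 3, mast cells at 0, 0, 14 and 1.5, and eosinophils at 0 in both groups. The gene was under 10 in 14 of 18 groups. Its log2 changes in macrophages and mast cells start from 0 and depend on the 1 added to the level, so no fold is given for them. In sDCs Cd4 and Klrd1 were lower with LPS (1092 against 2306.5, and 248 against 1906.5). The B-cell marker Pax5 moved with Cd70 (25 untreated, 23 with IL-10, 59.5 with LPS and 55.5 with both). The other B-cell marker, Cd79b, was 860.5 untreated and 452 with LPS. The part of T cells, natural killer cells and B cells in the Cd70 values was not tested.

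Per kb of transcript, which allows genes to be compared with each other, Tnf stood first among the 5 in every group given LPS except eosinophils. It was 113079.9 per kb in macrophages with LPS, against 107.0 for Lta, the next. Without LPS the first gene differed by cell type. It was Tnf in macrophages (434.7 per kb untreated), Ltb in neutrophils (3061.5), sDCs (2023.7) and eosinophils (1141.4), and Tnfsf14 in mast cells (1007.0). Eosinophils kept Ltb first with LPS, at 2369.7 per kb against 1429.8 for Tnf. Cd70 was last in every group without LPS, tied at 0 with Lta in untreated eosinophils, and in sDCs with LPS it stood at 625.9 per kb, above Lta at 453.7 and below Ltb at 1732.5.

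The first comparison asked what LPS alone did, and the transcripts of the ligands were counted beside all kept transcripts. In macrophages 4 of 6 kept member transcripts rose (Tnf, Lta, Cd70 and the main Ltb transcript), against 19.8% of 15110 transcripts, and 2 fell (Tnfsf14 and the retained-intron Ltb transcript, 5.5 to 0), against 20.9%. There Cd70 (0 to 33) reached the minimum of 10 only with LPS alone, and the retained-intron Ltb transcript only with both agents (11). In neutrophils 2 of 6 rose (Tnf and Lta), against 14.7% of all kept, and Tnfsf14 fell, against 13.7%. For sDCs the count was 4 of 7 raised (Tnf, Lta, Cd70 and, from 4.5 to 10, the Ltb transcript with another first exon), against 15.1%, and 0 lowered, against 15.0%. This Ltb transcript reached the minimum of 10 only with LPS alone, and the count was 3 of 7 with 10 added to the level. Mast cells had 5 of 6 raised, all but Tnfsf14, against 9.6%, and 0 lowered, against 8.58%. Of these 5, Cd70 (0 to 14) and the retained-intron Ltb transcript (2 to 12.5) reached the minimum of 10 only with LPS alone. Eosinophils had 2 of 5 raised (Tnf and the main Ltb transcript), against 5.65%, and 1 lowered (the Ltb transcript with another first exon), against 5.13%. The median log2 change of the kept members was 4.23 in macrophages, 1.84 in mast cells, 1.00 in sDCs, 0.89 in eosinophils and -0.43 in neutrophils.

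**Figure D3:**
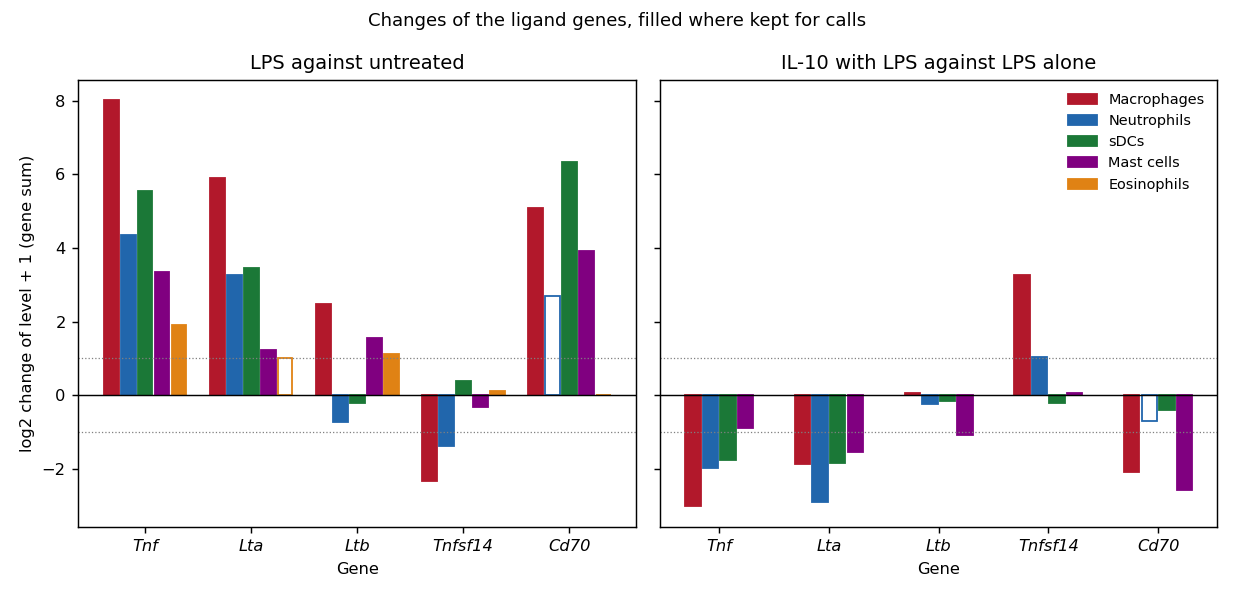
log2 change of level + 1 (gene sums) for the 5 ligand genes, with LPS against untreated on the left and IL-10 with LPS against LPS alone on the right, coloured by cell type; open bars mark genes not kept in that cell type and dotted lines mark 2-fold. Tnf and Lta were up on the left and down on the right in macrophages, neutrophils, sDCs and mast cells, and Tnfsf14 was the reverse in macrophages and neutrophils.

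The second comparison asked what IL-10 did to LPS-treated cells. Among kept member transcripts it lowered 3 of 6 in macrophages (Tnf, Lta and Cd70), against 13.1% of all kept transcripts, and raised 2, against 13.4%. Those raised were Tnfsf14 and the retained-intron Ltb transcript, from 0 to 11. That Ltb transcript was kept only through this level of 11, and Cd70 only through its level of 33 with LPS alone. In neutrophils it lowered 2 of 6 (Tnf and Lta), against 9.83%, and raised Tnfsf14, against 10.2%. In sDCs it lowered 2 of 7 (Tnf and Lta), against 7.7%, and raised 0, against 7.74%. In mast cells it lowered 4 of 6 (Lta, Cd70 and 2 Ltb transcripts), against 8.45%, and raised 0, against 7.26%. The count of 4 rests on low levels, and was 2 of 6 with 10 added to the level and 2 of 4 with a minimum of 50. Of the 4, Cd70 (14 to 1.5) and the retained-intron Ltb transcript (12.5 to 3.5) reached 10 only with LPS alone. The rule that kept them therefore favoured a fall from that level.

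The share of the LPS rise that was left when IL-10 was also given was lowest for Tnf in macrophages at 12.0%, followed by neutrophils at 21.8%, sDCs at 28.1% and mast cells at 49.4%. The first of these rests on the highest level the table holds. For all genes raised by LPS the median share left was 66.2% over 759 genes in macrophages, of which 50 had less left than Tnf. It was 68.6% over 538 genes in sDCs (47 with less), 58.6% over 268 genes in mast cells (118 with less) and 47.7% over 515 genes in neutrophils (92 with less). For Lta the share was 26.3% in macrophages, 20.8% in sDCs, 3.26% in neutrophils and -13.8% in mast cells, the last because the level with both agents was under the untreated one. Cd70 kept 10.7% of its rise in mast cells, 21.2% in macrophages and 76.1% in sDCs, and Ltb kept 106% in macrophages and 19.7% in mast cells. The Cd70 shares in mast cells (14 with LPS and 1.5 with both) and macrophages (33 and 7) rest on low levels. So does the Ltb share in macrophages (66.5 and 70).

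**Figure D4:**
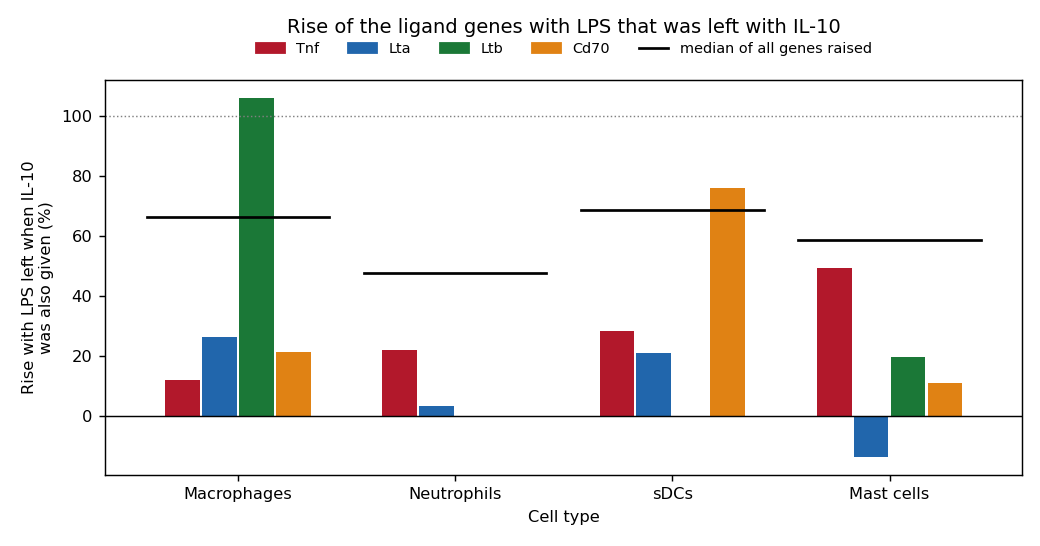
Share of the rise with LPS left when IL-10 was also given (%), as the level with both minus untreated over the level with LPS minus untreated, for each ligand gene raised by LPS, by cell type; black lines are the median over all genes raised by LPS. Tnf and Lta lay under the median line in all 4 cell types, and Ltb in macrophages and Cd70 in sDCs lay above it.

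The effect of IL-10 alone was counted in the same way. In macrophages 1 of 6 kept transcripts rose (Tnfsf14), against 9.93% of all kept, and 1 fell, against 9.38%, the retained-intron Ltb transcript from 5.5 to 0. The latter was kept only through its level of 11 with both agents. In neutrophils 0 of 6 rose, against 6.7%, and 0 fell, against 5.42%. In sDCs 1 of 7 rose (Tnfsf14), against 7.53%, and 0 fell, against 6.62%. In mast cells 0 of 6 rose, against 6.47%, and 0 fell, against 6.75%. Tnf differed by 0.29 on the log2 scale in macrophages, 0.10 in sDCs, 0.06 in mast cells and -0.13 in neutrophils.

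LPS was also compared within IL-10-treated cells. There it raised 5 of 6 kept member transcripts in macrophages, against 19.1% of all kept, 4 of 7 in sDCs, against 13.5%, 3 of 6 in mast cells, against 8.51%, and 1 of 6 in neutrophils, against 11.1%. It lowered Tnfsf14 in macrophages (log2 change -2.78, against 19.1% of all kept lowered) and sDCs (-1.08, against 12.9%), the retained-intron Ltb transcript in neutrophils (-1.14, against 10.6%) and 0 in mast cells, against 8.64%. Tnf rose by 4.71, 3.70, 2.42 and 2.51 on the log2 scale in these cell types. Lta rose by 4.36 in macrophages (2.18 with 10 added in place of 1) and 1.53 in sDCs, and differed by 0.17 in neutrophils and 0.24 in mast cells. Some of the raised calls rest on low levels. In macrophages these are Cd70 (0 to 7) and the retained-intron Ltb transcript (0 to 11). Cd70 was kept there only through its level of 33 with LPS alone, and the Ltb transcript only through this level of 11. In sDCs the Ltb transcript with another first exon went from 2.5 to 9, and was kept only through its level of 10 with LPS alone. In mast cells Cd70 went from 0 to 1.5, and was kept only through its level of 14 with LPS alone. With 10 added in place of 1, the raised counts were 4 of 6 in macrophages, 3 of 7 in sDCs and 2 of 6 in mast cells. The comparisons share groups, so their values are given side by side and not as separate evidence.

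The genes around the members were examined next. Within 100 kb of Ltb, Tnf or Lta the rows used held 13 other genes. Nfkbil1, whose product resembles the NF-kappaB inhibitors, rose with LPS from 248.5 to 803.5 in macrophages and from 360.5 to 823.5 in neutrophils. Ly6g5b rose in eosinophils (132 to 379) and in sDCs (5 to 11). By gene sums, 1 of 13 kept neighbours rose with LPS in macrophages, against 12.8% of all kept genes. The count was 1 of 13 in neutrophils, against 8.71%, and 1 of 13 in sDCs, against 9.04%. It was 1 of 12 in eosinophils, against 2.16%, and 0 of 12 in mast cells, against 4.76%. None of the 13 fell with LPS, against 14.8% in macrophages, 11.5% in sDCs and 7.9% in neutrophils. The shares lowered were 5.46% in mast cells and 0.702% in eosinophils. The leukocyte-specific transcript gene Lst1, between Aif1 and Ltb, differed with LPS by -0.82 to 0.52, and the class I histocompatibility gene H2-D1 by -0.26 to 0.31.

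Of 8 other genes within 100 kb of Cd70 or Tnfsf14, Tnfsf9 is itself a family ligand, that of the costimulatory receptor 4-1BB, and lies 38.2 kb from Cd70. It rose with LPS from 124.5 to 2127.5 in macrophages, 32.5 to 122 in neutrophils and 105.5 to 2296.5 in sDCs. It did not fall with IL-10 in LPS-treated cells of any type. Its level there was 2099 in macrophages and 2746.5 in sDCs, and in neutrophils it rose to 602.5. C3, the central complement component, rose with LPS in macrophages (7232.5 to 24700.5), neutrophils (33750.5 to 140658.5), mast cells (155 to 392) and eosinophils (45 to 298.5).

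**Figure D5:**
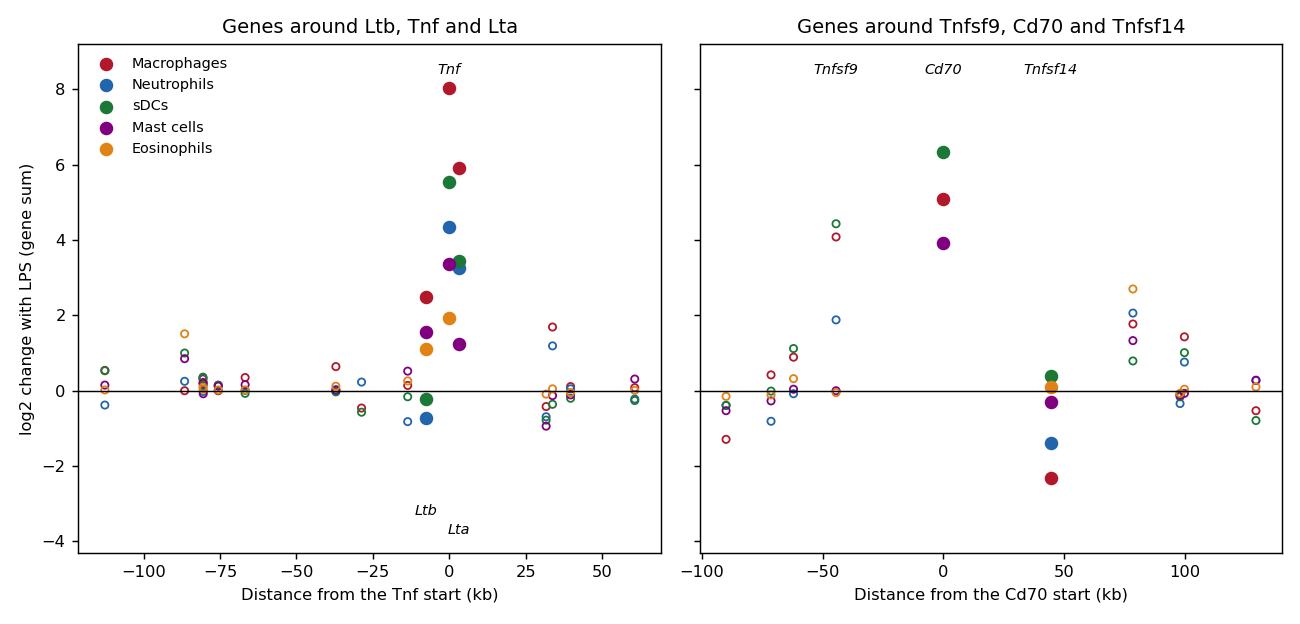
log2 change with LPS (gene sums) against distance in kb from the Tnf start (left) and the Cd70 start (right), coloured by cell type; filled points are the 5 ligand genes and open points are neighbouring genes kept in that cell type. Tnf and Lta stood above every other gene of the left panel that is not a ligand gene in macrophages, neutrophils, sDCs and mast cells.

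Other genes of the pathway were taken from lists. Of 13 further family ligands 2 were in the rows used, Tnfsf9 and Tnfsf13 (the plasma cell survival factor APRIL), and Tnfsf13 fell with LPS from 1097 to 395.5 in macrophages, 38.5 to 1 in sDCs and 46.5 to 11.5 in mast cells. Of 5 receptors of the members 3 were in the rows, and none reached 2-fold with LPS in a cell type where it was kept. The TNF receptor gene Tnfrsf1a was 4127 untreated and 5229.5 with LPS in macrophages, and 112 and 72 in mast cells. The lymphotoxin beta receptor gene Ltbr was 2032 and 2014.5 in macrophages, and Cd27 was highest in sDCs, at 116 untreated and 78 with LPS.

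Of 29 genes for signalling downstream of the receptors 15 were in the rows. By gene sums, LPS raised 9 of 15 in macrophages, against 12.8% of all kept genes, 6 in mast cells, against 4.76%, 6 in neutrophils, against 8.71%, 2 in eosinophils, against 2.16%, and 2 in sDCs, against 9.04%. Tnfaip3, which encodes the NF-kappaB inhibitor A20, rose in all 5 cell types, from 2808 to 18410 in macrophages and 1038.5 to 4319 in eosinophils. With IL-10, 0 of the 15 fell in LPS-treated cells, against 4.66% of kept genes in mast cells, 4.62% in macrophages, 3.88% in neutrophils and 2.08% in sDCs. Tnfaip3 was 17449 in macrophages and 29819.5 in neutrophils with both agents, and Nfkb1 was 10407 in macrophages, against 17321 with LPS alone.

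The lists for shedding, mRNA control and IL-10 signalling were sparse. Of 5 shedding genes 3 were in the rows, and Rhbdf1, which encodes the inactive rhomboid iRhom1 that escorts the TNF-cutting protease, rose with LPS in macrophages (87.5 to 246.5) and fell to 94 with IL-10. Adam10, a related protease gene, fell with LPS from 9606 to 3551 in macrophages and from 4864.5 to 2071.5 in sDCs. Both genes for control of the Tnf messenger in the rows, Khsrp and Cnot1 of 12 listed, stayed within 2-fold in every comparison. Of 11 IL-10 signalling genes 4 were in the rows, and Sbno2, which encodes a corepressor induced by IL-10, rose with IL-10 in LPS-treated neutrophils (3844.5 to 9044) and mast cells (3123 to 9268). The IL-10 receptor gene Il10ra rose with LPS in neutrophils, from 2380 to 5042.

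The genes most like each member over the 18 groups were found by Pearson's r of the log2 levels among 6247 genes, as a description in which groups share cell types and libraries were scaled together. For Tnf they were Ptx3, the soluble pattern recognition protein pentraxin 3 (r = 0.96), Ptgs2, the inducible cyclooxygenase (0.943), and Ddx58, the RNA sensor RIG-I (0.933). Lta was most like Rnf145 (0.881), Adcy5 (0.865) and Appbp2 (0.851), and its r with Tnf was 0.58, rank 210 of the genes compared. Ltb was most like Ccdc88c (0.965), Hsh2d (0.95) and Cd47, the "don't eat me" signal (0.942), with r = 0.088 to Tnf, its neighbour. Tnfsf14 was most like AI467606 (0.933), Osbpl7 (0.927) and the adenosine receptor gene Adora3 (0.924), and its r was -0.394 with Tnf and -0.554 with Cd70. Cd70 was most like Fbxw11 (0.932), Rnf114 (0.93) and Tdrd7 (0.913).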

How the data were processed

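RNA-seq libraries of 5 mouse myeloid cell types were summarised by the authors as 1 value per transcript and group. Per the labels, reads had been assigned with RSEM 1.2.1 and Bowtie 0.12.9 to Ensembl transcripts of mm9, and the authors then corrected for GC content and averaged 2 libraries per group. The deposited values are therefore a score, a normalized tag count in steps of 0.5 with a shared highest value of 185338, and not raw counts, and the depth of the libraries is unknown from the table. Replicate 1 of the untreated and IL-10 macrophages came from an earlier dataset, and the library kit differed for the sDCs and for 1 replicate of the mast cells, so levels compared across cell types, and macrophages compared with and without LPS, may also carry these differences.

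From the table, 17015 complete lines were read, 1 incomplete line at the end of the copy used was left out, and 22 lines (0.129%) without a gene name were dropped. Genes beyond that line, if any, were not read, so ranks, shares and highest levels hold for the rows used only. Transcripts were located by ID in GENCODE vM1. Changes were computed as log2(level + 1) with pandas 2.3.3 and numpy 2.4.6 under Python 3.11.15, drawn with matplotlib 3.10.9, kept at a highest group mean of at least 10 in the cell type and called at 2-fold. Gene levels are sums over transcripts, and levels per kb divide each transcript by its length. The calling code was tested on simulated data. No test was run, because each group has 1 value. Named were the 5 members, listed ligands and receptors, up to 4 genes per list with the largest change with LPS, genes within 100 kb of a member, and the 3 genes most like each member among those with a sum of at least 50 in some group; genes outside this rule, such as cell type markers, were named beside the results they touch. One B-cell marker is not reported here. The members and lists were chosen with earlier results of these data known. Alternatives changed the added value, the minimum, the fold called and the unit (transcripts or gene sums).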

Additional observations from a re-analysis of the deposited data

How the results depend on the processing

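Calls were counted once per member transcript and cell type and then summed, so 1 transcript can count in several cell types. With LPS 17 of 30 kept rose, and 11 of 25 fell with IL-10 in LPS-treated cells. With IL-10 alone 3 of 25 changed, and 13 of 25 rose with LPS in the presence of IL-10. The shares over all kept transcripts are those given above per cell type. Some of these calls are of transcripts kept only through the group where they were high, as named above. Calling at 4-fold left 4 that fell with IL-10 in LPS-treated cells, and calling at 1.5-fold gave 7 changed by IL-10 alone, both by the construction of the threshold. With an added value of 0.1 or 10, no minimum, a minimum of 50, gene sums or the other fold, the counts stayed within 1.5 times. Of 85 changes of member sums, 45 were called, none of the 85 changed sign with an added value of 0.1 or 10, and 5 calls were lost with 10, 2 of Ltb, 1 of Tnfsf14 and 2 of Cd70. No paired analysis was possible because the table holds 1 mean per group and no test was run. In single cell types counts moved by more, and with a minimum of 50 mast cells had 3 of 4 kept raised by LPS in place of 5 of 6. Fewer members were kept there, so the count fell more than the share. The spread between the 2 libraries of a group is not in the table, so no difference can be set against replicate error, least of all at levels near 10.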
